A study of Mus musculus with 6 samples.

Results

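The 10 genes described here are the 6 members of the mouse Zscan4 cluster (Zscan4a, Zscan4b, Zscan4c, Zscan4d, Zscan4e and Zscan4f) and 4 further genes named in connection with the two-cell-like state, Usp17la, Gm12794, Eif1a and Zfp352. They were taken by gene name from a deposited table of 31265 genes, and all 10 names were found. They were picked with their oxidized and reduced values already known, so these values are given as a description and no test of them is reported. The libraries come from E14Tg2a mouse embryonic stem cells, a wild-type line that carried the redox sensor Grx1-roGFP2 in its nucleus, a fluorescent protein whose excitation ratio reports the glutathione redox state. All cells had been differentiated as embryoid bodies, without LIF and the 2i inhibitors, for 5 days. From each of 3 populations (A, B and C) the live cells in the 10% most oxidized and the 10% most reduced fraction were sorted, giving 3 oxidized and 3 reduced libraries of polyadenylated RNA. What sets the populations apart (clone, culture or day) is not stated in the labels.

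Zscan4 proteins carry a SCAN domain and zinc fingers and are made in the mouse embryo at the two-cell stage, when its own genome is first transcribed. In cultures of embryonic stem cells a small and changing minority switches the cluster on for a short time, and part of these cells also transcribe the retrotransposon MERVL and other genes of the two-cell embryo. Zscan4 is known for lengthening telomeres and for the loss of the DNA methylation proteins Uhrf1 and Dnmt1, and the transcription factor Dux switches the programme on.

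The copies of the cluster differ by few bases, which limits how far a fragment can be assigned to one of them. The 6 genes and 3 copies named as pseudogenes lie within 820 kb, at chr7:10794242-11614112 (GRCm38, mm10). Transcripts of the 9 copies were 96.6 to 99.8% identical in pairwise comparison, with a median of 97.4%. The stretch below shows how alike they are in the coding part, where Zscan4c, with 4 exons, has 1518 coding bases in a transcript of 2276. Of the 60-base stretches within 1 coding exon of Zscan4c and without a gap in the 6 genes, none has more differences between them. It is at chr7:11009072-11009131 in Zscan4c (plus strand, GENCODE vM21 transcripts), and capitals mark a base that differs from that of Zscan4d.
Zscan4a: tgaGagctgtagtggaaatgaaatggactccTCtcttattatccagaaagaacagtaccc
Zscan4b: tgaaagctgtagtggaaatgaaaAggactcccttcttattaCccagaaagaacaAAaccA
Zscan4c: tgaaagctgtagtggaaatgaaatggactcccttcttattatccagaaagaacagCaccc
Zscan4d: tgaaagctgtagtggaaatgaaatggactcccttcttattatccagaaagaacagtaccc
Zscan4e: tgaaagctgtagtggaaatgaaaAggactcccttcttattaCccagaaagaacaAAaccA
Zscan4f: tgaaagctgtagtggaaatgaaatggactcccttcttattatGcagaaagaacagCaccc
In this stretch 9 positions differ among the genes, Zscan4b and Zscan4e are identical, and Zscan4c differs from Zscan4d at 1 position.

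RefSeq promoter sequence (GRCm38.p6) was found for 7 of the 10 members. The 250 bases before the start are shown for the 4 Zscan4 genes among them, because these genes were higher together in reduced cells. Zscan4b (chr7:10905051-10905300) and Zscan4d (chr7:11166149-11166398) are on the minus strand, and Zscan4c (chr7:11005495-11005744) and Zscan4f (chr7:11397665-11397914) on the plus strand. Capitals mark TGATTCAA and TATAAA.
Zscan4b: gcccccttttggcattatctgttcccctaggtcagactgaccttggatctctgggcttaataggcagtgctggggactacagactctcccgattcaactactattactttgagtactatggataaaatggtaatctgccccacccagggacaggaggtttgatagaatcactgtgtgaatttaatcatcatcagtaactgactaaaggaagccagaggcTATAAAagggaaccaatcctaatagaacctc
Zscan4c: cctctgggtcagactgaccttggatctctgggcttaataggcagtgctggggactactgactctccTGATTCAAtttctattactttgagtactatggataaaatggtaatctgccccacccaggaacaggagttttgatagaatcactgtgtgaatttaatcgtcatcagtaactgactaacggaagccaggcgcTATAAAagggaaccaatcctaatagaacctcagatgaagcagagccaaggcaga
Zscan4d: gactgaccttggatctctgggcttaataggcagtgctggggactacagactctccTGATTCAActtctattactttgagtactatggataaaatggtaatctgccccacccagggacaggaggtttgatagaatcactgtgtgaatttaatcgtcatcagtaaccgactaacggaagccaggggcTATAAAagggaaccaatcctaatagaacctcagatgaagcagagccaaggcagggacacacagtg
Zscan4f: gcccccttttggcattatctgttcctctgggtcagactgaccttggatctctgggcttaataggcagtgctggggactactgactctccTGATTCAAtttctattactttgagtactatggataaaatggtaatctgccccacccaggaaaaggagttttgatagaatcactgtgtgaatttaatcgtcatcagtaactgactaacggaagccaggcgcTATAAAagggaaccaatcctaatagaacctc
These 4 promoters were 94.7 to 99.6% identical. The sequence TATAAA, the core of a TATA box, stands at positions -31 to -65 in all 4 (position -1 is the base before the start), and 12.4% of 32851 promoters of this length hold it on either strand. TGATTCAA, at positions -184, -195 and -161 in Zscan4c, Zscan4d and Zscan4f, is found in 0.539% of promoters. It was chosen after the sequences were seen, as part of the binding motif of Dux. The whole Dux motif was found in 0 of the 7 members' promoters and in 0.0304% of all promoters, on either strand. A match or its absence says only which letters stand in this window.

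Shared sequence differed widely among the 10 members. Of all 50-base stretches of a gene's transcripts, 90.1% in Zscan4b, 89.0% in Zscan4e, 86.8% in Zscan4f and 85.5% in Zscan4c also occur in transcripts of another gene. The values were 63.6% in Zscan4a and 49.6% in Zscan4d, the lowest of the 6 Zscan4 genes. Gm12794 shared 47.3%, most of it with its neighbour in the Prame family Gm12800, and Usp17la shared 20.1% with other genes. Zfp352 shared 7.09% and Eif1a 2.62%, so the values of these 2 genes depend least on how fragments were divided. The sources used here do not state how fragments that match several genes were counted, so the level of any single Zscan4 gene is uncertain, and the sum over the cluster is given beside it.

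**Figure D1:**
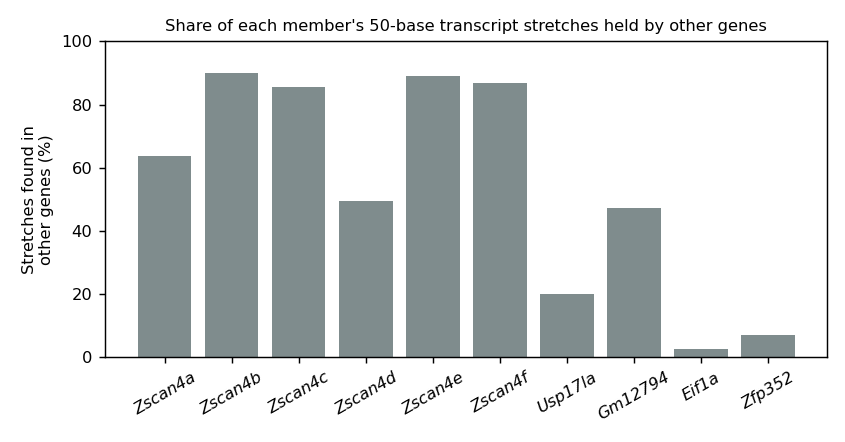
Bars give, for each of the 10 members, the percentage of its 50-base transcript stretches that also occur in transcripts of other genes. Zscan4b, at 90.1%, is the highest and Eif1a, at 2.62%, the lowest.

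The 6 libraries held an estimated 1.19e+07 to 1.80e+07 fragments, with those of population C the shallowest, and between 11911 and 12404 genes reached 1 FPKM in each (FPKM are fragments per kilobase of transcript, scaled to library size). At this depth 1 fragment on a 2.2 kb transcript is worth 0.0253 to 0.0383 FPKM. The oxidized libraries A and B stand apart from the other 4. The ribosomal RNA locus CT010467 was at 1410 and 1736 FPKM in them and at 34116 to 43825 FPKM elsewhere, and mt-Co3, a mitochondrial transcript, at 2710 and 1525 FPKM against 112 to 199 FPKM. Results are therefore also given without these libraries, which leaves oxidized C alone against the 3 reduced ones. In libraries of sorted cells, fewer cells that express a gene and less RNA per cell cannot be told apart.

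Of the 10 members, 8 were higher in every reduced library than in every oxidized one, while Eif1a and Zfp352 overlapped between the groups. Of 28179 genes above 0 in at least 1 library, 6.47% had this order and 10.3% the opposite one. Because the members were chosen on this contrast, nothing is read from their count. The levels are low: 9 of the 10 were below 3 FPKM in all 6 libraries, and only Zscan4f and Eif1a averaged 1 FPKM or more across the 6. In oxidized C 9 members were listed at 0, in oxidized B 6 were, and 6 were above 0 in oxidized A. Reduced B was the highest library for 7 members.

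Zscan4f, the most abundant gene of the cluster in reduced cells, is at chr7:11397915-11402318 and codes for a zinc finger protein. Its level was 2.03, 2.97 and 1.64 FPKM in reduced A, B and C, a mean of 2.21 ± 0.686 (SD, n = 3). It was listed at 0 in all 3 oxidized libraries. The reduced values correspond to an estimated 66.7, 92.5 and 37.6 fragments.

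Zscan4c (chr7:11005745-11010547), the copy best known from work on embryonic stem cells, was at 1.44, 2.10 and 1.25 FPKM in reduced A, B and C. In oxidized A, B and C it was at 0.283, 0.0289 and 0 FPKM. The group means were 1.60 ± 0.449 and 0.104 ± 0.156 FPKM (SD, n = 3 each). The groups do not overlap, and oxidized A, with an estimated 10.2 fragments, is the oxidized library with the most.

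Zscan4d (chr7:11161374-11166159), the copy known from the two-cell embryo, was at 0.676, 0.986 and 0.522 FPKM in reduced A, B and C. Its oxidized values were 0.0695, 0.0867 and 0 FPKM. More of its sequence is its own than in any other of the 6 genes, 50.4% of its stretches, and here too the lowest reduced library lay above the highest oxidized one.

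Zscan4a (chr7:10794242-10799057), annotated by GENCODE as an unprocessed pseudogene, was at 0.725, 1.07 and 0.984 FPKM in reduced A, B and C and at 0.0922, 0.0288 and 0 FPKM in the oxidized A, B and C libraries. Zscan4e (chr7:11306378-11310682) was at 0.376, 0.496 and 0.444 FPKM in the reduced libraries, and in oxidized cells it was above 0 in population A alone, at 0.0733 FPKM. Zscan4b (chr7:10900740-10905050) was the lowest of the 6, at 0.0982, 0.179 and 0.221 FPKM in the reduced libraries and 0.0643 FPKM in oxidized A. Zscan4b came closest to overlap, since an estimated 1.82 fragments in oxidized A stand against 3.14 in reduced A. Reduced C was its highest library, unlike the other 5 genes of the cluster, which were highest in reduced B.

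**Figure D2:**
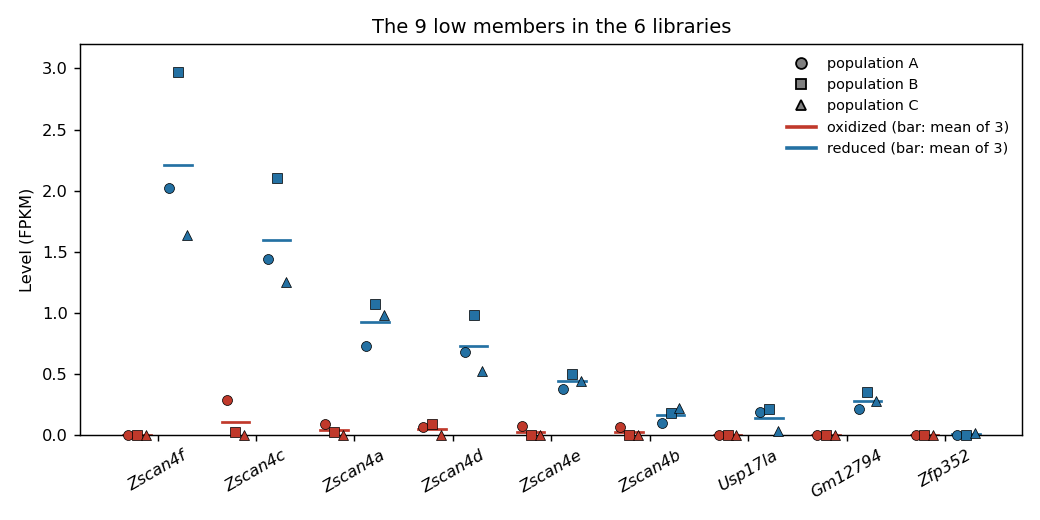
Each point is the level of a gene in 1 library, in FPKM on a linear axis, with oxidized libraries in red, reduced libraries in blue, a symbol for each population and a bar at the mean of 3. Eif1a is left out for its higher level. Zscan4f reaches 2.97 FPKM in reduced B and is listed at 0 in the oxidized libraries.

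Summed over the 6 genes, the cluster was at 5.34, 7.80 and 5.06 FPKM in reduced A, B and C. In oxidized A, B and C the sum was 0.582, 0.144 and 0 FPKM. The means were 6.06 ± 1.51 and 0.242 ± 0.303 FPKM (SD, n = 3 each), a difference of 5.82 FPKM and a ratio of 25.0. The ratio rests on few oxidized fragments: it was 84.0 without oxidized A and 16.7 without oxidized C. Within a population the difference ranged from 4.76 to 7.66 FPKM, and every population had the reduced library higher. The sums stand for an estimated 603 fragments in the reduced and 24.9 in the oxidized libraries together. With oxidized A and B left out, the difference was 6.06 FPKM.

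The genes kept 1 order in the 3 reduced libraries: Zscan4f was above Zscan4c, followed by Zscan4a, Zscan4d, Zscan4e and Zscan4b. Zscan4f made up 36.1 ± 3.26% of the summed FPKM of the reduced libraries, Zscan4c 26.2 ± 1.30%, Zscan4a 15.6 ± 3.36% and Zscan4d 11.9 ± 1.34% (SD, n = 3). Zscan4e made up 7.39 ± 1.25% and Zscan4b 2.84 ± 1.35%. In FPKM, a value per length, the ranges of Zscan4f and Zscan4c overlapped over the 3 reduced libraries, as did those of Zscan4a and Zscan4d. The ranges of Zscan4c and Zscan4a, of Zscan4d and Zscan4e, and of Zscan4e and Zscan4b were apart. In oxidized A, the 1 oxidized library with more than a few fragments, the largest share was that of Zscan4c, 48.6%, and Zscan4f had 0.

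The 3 copies named as pseudogenes, which GENCODE annotates as protein-coding, had values of the same size as the genes. Zscan4-ps3 was at 1.42, 1.70 and 0.362 FPKM in reduced A, B and C, and Zscan4-ps2 at 1.15, 1.49 and 0.673 FPKM. Zscan4-ps1, of whose stretches 48.4% are shared, was at 0.509, 0.231 and 0.543 FPKM. In oxidized cells the 3 were above 0 in library A alone, at 0.0947, 0.0578 and 0.227 FPKM for Zscan4-ps3, Zscan4-ps2 and Zscan4-ps1. Reduced B was close to oxidized A in Zscan4-ps1, 0.231 against 0.227 FPKM. With these 3 copies added, the difference in the sum was 8.39 FPKM. Transcripts of Zscan4f and Zscan4-ps2 are 99.8% identical, so the sum without these copies also depends on how fragments were divided.

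Usp17la (chr7:104857009-104862667), which codes for a deubiquitinating enzyme, was at 0.189, 0.210 and 0.0291 FPKM in reduced A, B and C and was listed at 0 in the oxidized libraries. The value in reduced C stands for an estimated 0.969 fragments. Its relatives, 90.6 to 94.9% identical to it in transcript sequence, were not alike. Of the 4 other Usp17 genes 1, Usp17lb, was higher in every reduced library (6.89% of genes with a mean of 0.05 to 1.5 FPKM had this order). Usp17lb was at 0.558, 0.512 and 0.153 FPKM in reduced A, B and C and was listed at 0 in the oxidized ones. Usp17lc, Usp17ld and Usp17le were listed at 0 in oxidized A and C but reached 0.174, 0.281 and 0.149 FPKM in oxidized B. None of the 4 passed the filter of a mean of 1 FPKM, so none was tested.

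Gm12794 (chr4:101940407-101943183), called Pramel19 in RefSeq, belongs to the Prame family of leucine-rich repeat proteins, many of which are made in germ cells and the early embryo. It was at 0.210, 0.355 and 0.278 FPKM in reduced A, B and C and listed at 0 in the oxidized libraries. With Zscan4f and Usp17la it was 1 of 3 members at 0 in all oxidized and above 0 in all reduced libraries, a pattern held by 0.837% of the 10160 genes with a mean of 0.05 to 1.5 FPKM.

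Of the 27 other Prame family genes that were listed, 4 were higher in every reduced library (6.47% of genes above 0 had this order), 23 overlapped or were at 0, and 5 of these 23 were at 0 in all 6 libraries. Leaving out Pramef8 and Pramef12, the 25 others summed to 1.25, 1.75 and 2.55 FPKM in reduced A, B and C and to 0.469, 0.222 and 0.181 FPKM in the oxidized A, B and C libraries. Pramef8 and Pramef12 were the 2 that passed the filter, at 3.47 to 7.76 and 3.34 to 8.47 FPKM over the 6 libraries, and neither passed the limma test (log2 differences, oxidized minus reduced, of 0.16 and -0.11, adjusted p = 0.740 and 0.856). Those 2 signs flip when single libraries are left out.

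Zfp352 (chr4:90218820-90225702), a zinc finger gene that is strongly transcribed in the two-cell embryo, was listed at 0 in 5 libraries. In reduced C it was at 0.0175 FPKM, an estimated 0.501 fragments. Dux itself, named Duxf3 in the table, was at 0.108 and 0.0218 FPKM in reduced A and B, at 0.00786 FPKM in oxidized C and at 0 in the other 3 libraries. The highest value of Dux stands for an estimated 3.94 fragments and the other values above 0 of both genes for less than 1, so a difference was not detectable at this depth for either gene. The level of Zscan4b, an estimated 3.14 fragments in reduced A, is no firmer than that of Dux in the same library. MERVL is not analysed here.

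Among the other genes of the two-cell embryo 26 of 36 listed names were in the table, and 3 were higher in every reduced library, 3 of the 11 with a mean of 0.05 to 1.5 FPKM (6.89% of all genes in that range had this order, and 9.97% the opposite one). They were chosen for naming after their values were seen. Gm21761 was at 0.643, 0.893 and 0.366 FPKM in reduced A, B and C and at 0.0460, 0.0712 and 0.115 FPKM in the oxidized A, B and C libraries. Gm20767 was at 0.506, 0.429 and 0.165 FPKM in the reduced libraries and at most 0.0385 FPKM in the oxidized ones. Gm4340 was at 0.0288, 0.171 and 0.173 FPKM in reduced cells and listed at 0 in oxidized cells.

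Other classic members of the programme did not have this order. Tcstv1 was above 0 in 5 libraries, each time with an estimate of less than 1 fragment, so its values have no usable order. Tcstv3 had its highest value, 0.186 FPKM, in oxidized A, and was at 0.170 FPKM in reduced B. These values stand for an estimated 2.31 and 2.26 fragments, too few to tell them apart. Tdpoz4 was above 0 in reduced B alone, at 0.183 FPKM, an estimated 3.46 fragments. Of the list 2 genes passed the filter, and neither passed the limma test: Ddit4l, an inhibitor of mTOR signalling (log2 difference 0.26, adjusted p = 0.468), and Nelfa, a subunit of the negative elongation factor (log2 difference -0.01, adjusted p = 0.972), whose sign flips when single libraries are left out. These 3 low genes were also chosen after their values were seen.

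Eif1a, which codes for a factor that helps the ribosome find the start codon, differed from the other members in level and pattern. It was at 54.6, 44.8 and 12.7 FPKM in the oxidized A, B and C libraries. In reduced A, B and C it was at 12.8, 14.1 and 13.1 FPKM, a mean of 13.3 ± 0.642 against 37.4 ± 21.9 FPKM in oxidized cells (SD, n = 3 each). Oxidized C lies just below the reduced range, so the groups overlap and the higher mean rests on oxidized A and B, the libraries that stand apart. Without them the difference, reduced minus oxidized, changed from -24.0 to 0.670 FPKM. The part that the make-up of these libraries has in this value was not tested.

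The homologues Eif1ax and Eif1ad, which were in the same range, did not have this pattern. Eif1ax was at 37.8, 29.0 and 29.4 FPKM in oxidized and 31.5, 40.3 and 33.8 FPKM in reduced A, B and C (limma, log2 difference -0.13, SE 0.17, adjusted p = 0.701). None of its 50-base stretches occurs in another gene. Eif1ad was at 37.4, 39.5 and 32.6 FPKM in oxidized and 34.2, 36.2 and 34.9 FPKM in reduced A, B and C (limma, log2 difference 0.05, SE 0.15, adjusted p = 0.875), and its sign flips to -0.05 with median-ratio scaling. Eif1ad overlaps Banf1 on the opposite strand, and strand use in the counting is not stated by these sources.

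**Figure D3:**
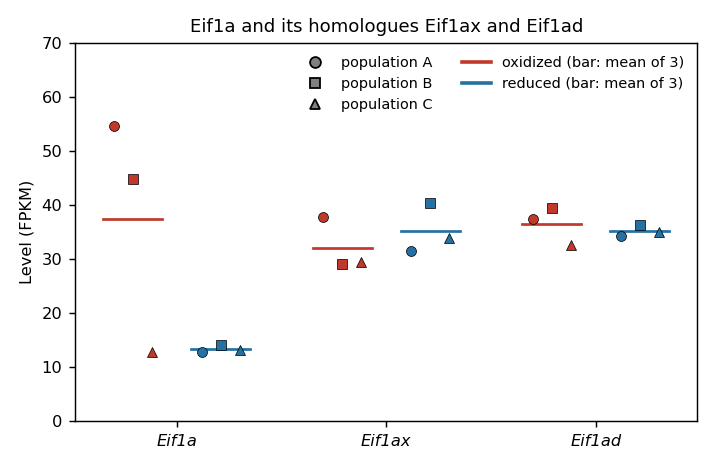
Points give the level of Eif1a, Eif1ax and Eif1ad in each library, in FPKM on a linear axis, with a bar at the mean of 3 libraries. Oxidized A and B, at 54.6 and 44.8 FPKM of Eif1a, lie above the other 4 libraries, which are at 12.7 to 14.1 FPKM.

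The copies of Eif1a that are known from the two-cell embryo had the pattern of the Zscan4 genes, not that of Eif1a. These 11 Eif1a-like genes lie within 810 kb at chr12:87514316-88324026, and their transcripts are 70.5 to 94.7% identical to that of Eif1a. Their sum was 7.86, 7.35 and 3.68 FPKM in reduced A, B and C. In oxidized A, B and C it was 0.554, 0.112 and 0.0306 FPKM, which gives means of 6.30 ± 2.28 and 0.232 ± 0.282 FPKM (SD, n = 3 each) and a ratio of 27.1. Without oxidized A the ratio was 88.6, and without oxidized A and B 206. These 2 ratios rest on an estimated 0.740 fragments in oxidized B and 0.671 in oxidized C, so nothing is read from their size. The reduced libraries are all above the oxidized ones, and reduced C is the lowest of the 3. They hold an estimated 428 fragments against 15.9 in the oxidized libraries.

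Of the 13 genes of this list, with Eif1ax and Eif1ad, 9 were higher in every reduced library, all of them among the 11 copies (6.47% of genes above 0). The copies Gm2056 and Gm21319, with 87.0% and 13.2% of their stretches shared, overlapped because each was listed at 0 in reduced C. Gm2016 was the most abundant in reduced A, at 2.01 FPKM, with 1.42 and 0.815 FPKM in reduced B and C and at most 0.157 FPKM in oxidized cells. Gm5662 was at 1.34, 1.69 and 0.342 FPKM in reduced A, B and C and at 0.275 FPKM in oxidized A. Gm8300, of whose stretches only 26.6% occur in other genes, was at 0.345, 0.840 and 0.424 FPKM in the reduced libraries and listed at 0 in the oxidized ones. Gm5039, with 17.3% of its stretches shared, was at 0.696, 0.579 and 0.170 FPKM in reduced cells and above 0 in oxidized A alone, at 0.0510 FPKM. BB287469, whose stretches are shared to 96.6%, was at 0.188, 0.144 and 0.242 FPKM in reduced cells and listed at 0 in oxidized cells. The part of shared sequence in these values was not tested. All of these copies were named after their values were seen.

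**Figure D4:**
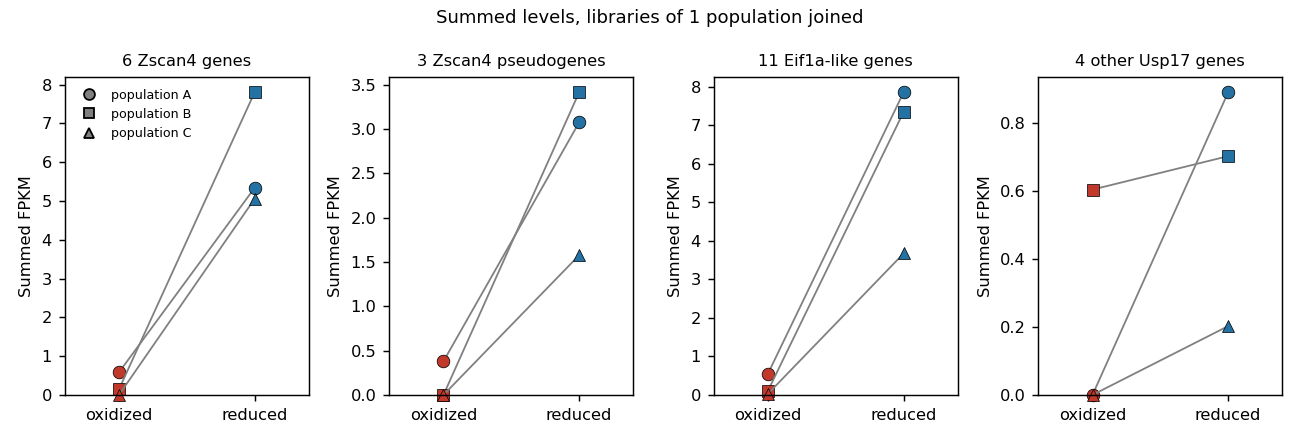
Lines join the oxidized and the reduced library of 1 population, and the axis is the FPKM summed over the genes named above each panel, on a linear scale of its own. In the panels of Zscan4 genes, pseudogenes and Eif1a-like genes every line rises, and in the panel of the 4 other Usp17 genes oxidized B, at 0.604 FPKM, lies above reduced C.

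Markers of other cell types also differed between the libraries. The 8 pluripotency markers summed to 445, 570 and 247 FPKM in the oxidized A, B and C libraries and to 645, 537 and 468 FPKM in reduced A, B and C. Of these 8, 4 were higher in every reduced library (6.47% of all genes above 0 had this order and 10.3% the opposite one), and 4 overlapped. By mean, 7 were higher in reduced libraries and 1, Nanog, in oxidized ones, at 34.9 against 23.2 FPKM. Pou5f1, at 119 ± 40.7 and 183 ± 15.7 FPKM in oxidized and reduced libraries, and Utf1, at 170 ± 99.8 and 179 ± 32.6 FPKM (SD, n = 3 each), carried most of the sum. The 7 germ cell markers summed to 108 to 145 FPKM in oxidized and 189 to 200.4 FPKM in reduced libraries, and 2 of the 7, Ddx4 and Dppa3, were higher in every reduced library while the other 5 overlapped. Dppa3, at 108 ± 16.3 and 166 ± 5.10 FPKM (SD, n = 3 each), carried most of this sum, and the 6 others summed to 15.9 to 24.7 and 29.0 to 33.8 FPKM. The 8 markers of embryoid body lineages summed to 145 to 210 FPKM in oxidized and 88.3 to 127 FPKM in reduced libraries, 3 of them higher in every oxidized library and 1, T, in every reduced one. Hand1, at 156 ± 30.6 and 80.8 ± 17.4 FPKM (SD, n = 3 each), carried most of this sum and set its direction. The others together were higher in the reduced libraries, with T at 4.51 ± 1.06 in oxidized and 14.7 ± 0.232 FPKM in reduced cells. By gene, 6 had the higher mean in oxidized and 2 in reduced libraries. Limma called T among 6 tested lineage markers (adjusted p = 0.0158) and Ddx4 among 6 tested germ cell markers (adjusted p = 0.0466). Both were lower in oxidized cells, a call made for 0.279% of all tested genes. It called 0 of 7 tested pluripotency markers. None of the 23 markers was at 0 in any library. The part of these differences in the levels of the Zscan4 genes was not tested.

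By Pearson's r over the 6 libraries on the log2(FPKM + 1) scale, the 5 genes most like the summed Zscan4 level, of 12189 compared, were Zc3h8, EU599041, Dppa2, Plac8 and Tigar, with r from 0.993 to 0.996. The 6 values fall into the 2 sorted groups, so r mainly describes a gap between them. Zc3h8, a zinc finger gene, was at 6.84 to 7.68 FPKM in oxidized and 10.9 to 12.1 FPKM in reduced libraries. EU599041 was at 1.23 to 1.76 and 4.74 to 7.16 FPKM. Plac8, a small cysteine-rich protein first described in placenta, was at 0.658 to 1.10 and 2.07 to 2.40 FPKM, and Tigar, a phosphatase of sugar metabolism, at 8.11 to 9.70 and 16.6 to 18.5 FPKM. With a pseudocount of 0.1 the 5 were Mtres1, Plac8, Dppa3, Taf7 and Bnipl, 1 of them shared.

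Eif1a had other genes near it. The 5 most like it were Rfk, Pgam5, Serinc3, G6pdx and Med17, with r from 0.997 to 0.998, and the same 5 were found with a pseudocount of 0.1. Each was high in oxidized A and B and level in the other 4 libraries. Rfk, riboflavin kinase, was at 32.8 and 30.0 FPKM in the oxidized A and B libraries and at 11.9 to 13.1 FPKM in the other 4. G6pdx, the first enzyme of the pentose phosphate pathway, was at 29.2 and 25.6 FPKM against 5.51 to 6.66 FPKM. Pgam5, a mitochondrial phosphatase, was at 67.6 and 63.4 FPKM against 27.3 to 29.0 FPKM.

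Genes known to switch the two-cell-like programme on were tested with limma on the log2(FPKM + 1) scale, with p-values adjusted by the Benjamini-Hochberg method over 12191 genes. The fit used the group alone. Its p-values therefore rest on the spread among the 3 libraries of each fraction, and not on that of the differences within populations. The gene lists were chosen with earlier results of these data known, so the calls are no independent test of them. Of the 4 activators 1 was called, Dppa2, which was lower in oxidized cells (0.796% of all tested genes were called, 0.279% lower and 0.517% higher). The median difference, oxidized minus reduced, was -0.48 over the 4 and 0.08 over all tested genes. Dppa2, a chromatin protein that binds the Dux promoter (chr16:48303908-48319723), was at 7.75, 6.82 and 5.31 FPKM in the oxidized A, B and C libraries and at 18.1, 24.5 and 16.8 FPKM in reduced A, B and C. Its log2 difference was -1.44 (SE 0.20, adjusted p = 0.0287), with the reduced library higher in 3 of 3 populations. Of its stretches 29.1% occur in other genes.

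The call of Dppa2 depended on the libraries and the fit. With the population as a replicate block its adjusted p was 0.0613, and over all alternatives it ranged from 0.00596 to 0.191. Without oxidized A it was 0.0747, without oxidized B 0.106, without reduced A 0.137, without reduced B 0.145 and without oxidized A and B together 0.0941. The log2 difference kept its sign throughout, from -1.70 to -1.28.

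Dppa4, the partner of Dppa2 and its neighbour at chr16:48283733-48294237, was at 46.6, 42.7 and 34.8 FPKM in the oxidized A, B and C libraries. In reduced A, B and C it was at 87.1, 83.1 and 70.4 FPKM, so the groups do not overlap. Its log2 difference was -0.94 (SE 0.17), and it missed the threshold with an adjusted p of 0.0522 by limma, within a range of 0.0210 (without oxidized C) to 0.240 (without reduced A) over the alternatives. Nelfa and Trp53, a tumour suppressor that can activate Dux after DNA damage, had adjusted p-values of 0.972 and 0.590 by limma. Nelfa overlaps Nsd2 on the opposite strand.

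Of 22 repressors of the programme, chromatin proteins and SUMO pathway members for the most part, limma called 0, and 3 had an unadjusted p under 0.05, as did 19.4% of all tested genes. Their median log2 difference was -0.05, with 10 positive and 12 negative values, against 0.08 over all tested genes, of which 7232 were positive and 4959 negative. Zfp42 (Rex1), a zinc finger protein that binds retroviral elements, was at 38.4, 42.5 and 56.0 FPKM in the oxidized A, B and C libraries and at 128, 103 and 56.5 FPKM in reduced A, B and C. In population C its values nearly met (log2 difference -0.99, adjusted p = 0.138 by limma). Mga, the scaffold of a Polycomb complex, was at 1.89 to 3.74 FPKM in oxidized and 4.36 to 7.37 FPKM in reduced libraries (log2 difference -0.78, adjusted p = 0.149 by limma). Sumo2, the most abundant of the list, had overlapping groups, at 149 to 267 and 253 to 376 FPKM (log2 difference -0.43, adjusted p = 0.395 by limma). Without oxidized C, the adjusted p of Zfp42 was 0.0443 and that of Mga 0.0366, and 3 of the 22 were called, beside 9.72% of all tested genes. The third was Pias4, a SUMO ligase outside the naming rule, at 27.7, 32.6 and 13.5 FPKM in oxidized and 17.3, 13.6 and 15.1 FPKM in reduced A, B and C.

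Of 11 partners of Zscan4 and telomere genes 10 were tested, 0 were called by limma and 3 had an unadjusted p under 0.05 (19.4% of all tested genes), with a median log2 difference of 0.05. Terf1, which binds telomere repeats, was at 21.2, 18.8 and 16.0 FPKM in the oxidized A, B and C libraries. In reduced A, B and C it was at 30.3, 44.7 and 28.7 FPKM, above every oxidized library (log2 difference -0.84, SE 0.20, adjusted p = 0.103 by limma). Tert, the catalytic subunit of telomerase, was at 0.651 to 1.16 FPKM in oxidized and 1.41 to 1.71 FPKM in reduced libraries (log2 difference -0.40, adjusted p = 0.248 by limma). Uhrf1 had the opposite sign, at 79.0, 102.7 and 59.4 FPKM in oxidized and 64.0, 48.7 and 53.4 FPKM in reduced A, B and C, and its groups overlapped (log2 difference 0.50, adjusted p = 0.252 by limma). Dnmt1 had a log2 difference of 0.31 (adjusted p = 0.388 by limma). Tinf2, a subunit of the complex that covers telomeres, was at 11.9 and 11.6 FPKM in the oxidized A and B libraries and at 3.91 to 4.76 FPKM in the other 4, and was called when oxidized C was left out. Like Trp53, Dnmt1 and Tinf2 were named after their values were seen.

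**Figure D5:**
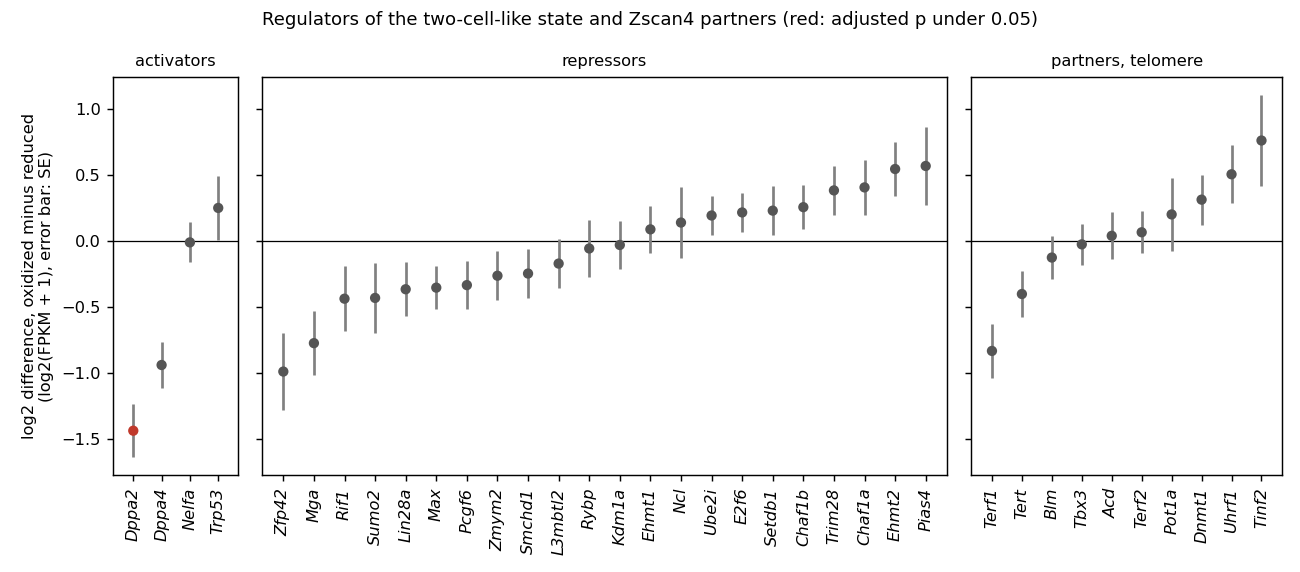
Points give the log2 difference, in log2(FPKM + 1) of oxidized minus reduced libraries, of each tested activator, repressor and partner or telomere gene, and bars the standard error from limma. Dppa2, at -1.44, is the 1 gene in red, with an adjusted p of 0.0287, and the repressors lie on both sides of 0.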

How the data were processed

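The authors deposited 1 table with an FPKM value per gene and library, per the file headers. It also holds the authors' deposited fold (a ratio of mean FPKM), its log2, and p-value and q-value columns from a test the headers do not name, none of which is used here. Tools named by the submitters' processing notes are HISAT2, StringTie, cutadapt, FastQC and edgeR, with the mm10 build. These sources do not state how multi-mapping fragments and strand were treated.

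The members and gene lists were chosen with earlier results of these data known. FPKM are not counts, and steps in low values were whole, within 0.1, for 39.4 to 44.4% of values, so reads were not recovered and fragment numbers are estimates from the step size. Genes averaging 1 FPKM or more were tested on log2(FPKM + 1), a scale that understates changes of low genes, with limma 3.58.1 (R 4.3.3; group alone, eBayes with trend, two-sided, Benjamini-Hochberg, adjusted p under 0.05). The fit was tested on simulated data. In the deposited values 97 of 12191 genes were called. The members Zscan4f and Eif1a passed the filter and were part of this fit. Zscan4f is among the 97, but no member's result is read. Column names carry population letters, and the design text says that both fractions came from the same populations. Same-letter libraries correlated by -0.06, 0.07 and 0.20 (A, B and C) in their deviations from the group means. Named were all members and pseudogenes, called genes or the 2 with the smallest p and the most abundant tested gene of each list, the 5 most alike genes, Dppa2, Dppa4 and Dux. Transcripts (GENCODE vM21) were aligned with MAFFT 7.526. Promoters are from RefSeq.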

Additional observations from a re-analysis of the deposited data

How the results depend on the processing

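Of 90 recomputed member differences 1 reversed, that of Eif1a, to 0.670 FPKM without oxidized A and B (added after seeing the data), and 89 moved by less than 1 SD. Leaving out 1 of 3 libraries cannot move a mean by 1 SD, and the mean difference within populations equals the main one. Most of these 89 outcomes were therefore fixed in advance and say nothing of stability. Median-ratio scaling left 8 members higher in every reduced library. Leaving out libraries or comparing within populations cannot break this order and says nothing of its stability. The summed Zscan4 difference was 8.39 FPKM with the pseudogenes, 0.86 as a mean on the log2 scale, and with the replicate block 5.82 ± 1.60 FPKM (SD). Genes called were 97. There were 1 without a filter, 4 with the replicate block, 3 (without oxidized A or reduced B) to 1185 (without oxidized C) without 1 library, 64 without reduced C, and 4 without oxidized A and B. Of the related genes 1 was called, 2 (with Dppa4) under median-ratio scaling, quantile normalization or a mean of at least 5 FPKM, 0 without a filter, with the replicate block or without oxidized A and B, and 0 to 6 without 1 library, the 6 being without oxidized C. Called higher against lower were 63 and 34, 57 and 50 with median-ratio scaling and 54 and 51 with quantile normalization. With a pseudocount of 0.1, 1 of 5 genes most like Zscan4 was shared. Signs reversed, none of them called, for Pramef8 (-0.076 without oxidized B, range -0.076 to 0.41 without 1 library, -0.34 without oxidized A and B), Pramef12 (-0.32 to 0.24 without 1 library), Eif1ad (-0.053 median-ratio, -0.036 quantile, -0.0074 to 0.13 without 1 library, -0.10 without oxidized A and B) and Nelfa (-0.079 to 0.047 without 1 library). The replicate block changed no related gene's call other than that of Dppa2. The causes of these changes were not tested. Depth limits the members below about 0.1 FPKM, a few fragments.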

Other observations

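Of the Obox homeobox genes and Oog genes, known from the oocyte, 8 were above 0 in at least 1 library, and none of the 8 was higher in every reduced library. Of all genes above 0 in at least 1 library only 6.47% had this order, so nothing is read from this count. Obox2 was at 0.0961 and 0.793 FPKM in reduced B and C and at 0 in the other 4 libraries. Oog3 was at 0, 0.337 and 0.681 FPKM in reduced A, B and C, against 0.203, 0 and 0.0909 FPKM in the oxidized A, B and C libraries. Obox1, Obox5, Oog1 and Oog2 were also highest in reduced C, at 0.343, 0.269, 0.0335 and 0.0482 FPKM. For Oog1 and Oog2 this stands for an estimated 1.03 and 1.16 fragments, too few for a usable order. Obox6 and Oog4 were highest in reduced B, at 0.393 and 0.207 FPKM, and Obox6 was at 0 in reduced C. The genes named here were chosen after the values had been seen. Differences between single libraries were not tested.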
